A study of Mus musculus with 12 samples.

Results

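The genes described here encode proteins of the synaptic vesicle and of its fusion with and recovery from the plasma membrane: Syn1, Syn2, Slc17a6, Syt1, Stx1a, Snap25, Vamp2, Cplx1, Cplx2 and Dnm1. They were chosen by name, with earlier results of these data known, and each was read through the probe set that carries its symbol alone. Of the 10 genes, 9 had such a probe set, out of 19938 genes with one on the array. The only probe set of Vamp2, the vesicle SNARE synaptobrevin, also carries the symbol of Ubr3, so Vamp2 has no value here. Each of the 9 genes had 1 probe set, and all 9 lay above the filter on low signals.

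The RNA came from each side of the main olfactory epithelium (MOE) of wild-type (WT) and H2be-KO mice after unilateral naris occlusion (UNO), the closure of 1 nostril by electrocautery. All mice were occluded at 2 weeks of age and had the closed nostril for 3 weeks, so the open side serves as the internal control and no unoperated mice were analysed here. The sample titles give an age of 5 weeks, although the age tag of the same samples reads 6 months. The 4 groups, WT open, WT closed, KO open and KO closed, hold 3 samples each, and the design notes of the series give tissue pooled from 2 mice per sample, 1 of each sex, while other descriptions of the study give a larger number. In the H2be-KO allele the coding sequence of H2be, a histone H2B variant of olfactory sensory neurons (OSNs), is replaced by a membrane-targeted mCherry reporter. Both sides of the KO mice carry this allele.

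An OSN sends its axon to a glomerulus of the olfactory bulb and releases glutamate there. The vesicles of its terminal are loaded with glutamate by a vesicular transporter, tethered in a reserve pool by synapsins, fused with the membrane by SNARE proteins under the control of synaptotagmin and complexins, and retrieved by dynamin. The terminals themselves lie in the bulb, so the tissue sampled here holds the cell bodies that make the transcripts. In a bulk sample of this kind, fewer cells of a type and less RNA per cell cannot be told apart.

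Values are log2 expression levels, 1 per probe set and array, and a difference of 1 on this scale is a doubling. Array medians lay between 7.21 and 7.30, and pairs of arrays correlated with r from 0.965 to 0.978 within groups (12 pairs) and from 0.963 to 0.977 between groups (54 pairs), over the same probe sets. H2be itself, named H2bc21 in current annotation, lay lower in every KO array than in every WT array of its side, with log2 differences of -0.26 on the open side (adjusted p = 0.641, limma) and -0.27 on the closed side (adjusted p = 0.999, limma). Where its probes lie relative to the replaced coding sequence is not given in the sources used here. The defining markers of the tissue were present: Omp of mature OSNs, Cyp2g1 of sustentacular cells and Krt5 of basal cells had mean log2 levels of 12.6, 12.4 and 9.75.

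In both genotypes, all 9 genes had a lower mean in the closed than in the open arrays. Over both genotypes together, 5 of the 9 passed the test (Syn1, Syn2, Slc17a6, Cplx2 and Dnm1), by 1.29-fold to 1.44-fold, while Stx1a, Snap25, Syt1 and Cplx1 did not. A gene is said to have passed where its p, adjusted by Benjamini-Hochberg over all 32615 probe sets tested with limma, was under 0.05. In that comparison 1.23% of all probe sets were called lower and 1.66% higher, against 5 and 0 of the 9 genes. As the genes were chosen with earlier results of these data known, this and the later contrasts with all probe sets are descriptions.

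The synapsins Syn1 and Syn2 coat the vesicle and hold it in the reserve pool. Syn1 had log2 levels of 8.74, 8.44 and 8.73 in the WT open arrays and 8.11, 8.10 and 8.19 in the WT closed arrays. In the KO its levels were 8.51, 8.57 and 8.52 in open and 8.21, 8.14 and 8.18 in closed arrays. Every closed array lay below every open array of either genotype, and the lowest open value, that of WT open replicate 2, stood apart from the other WT open values. Averaged over WT and KO, the log2 difference of Syn1, closed minus open, was -0.43 (standard error 0.066, 95% interval -0.57 to -0.29, adjusted p = 0.00368, limma), a 1.35-fold lower level. The WT change was -0.50 (adjusted p = 0.0323) and the KO change -0.36 (adjusted p = 0.131), from the same fit. When single arrays were left out, the WT call held only without KO closed replicate 1 or WT open replicate 2 (adjusted p up to 0.155 otherwise, limma).

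Syn2 had the largest change of the 9 genes in the WT, in the KO and over both. Its log2 levels were 8.91, 9.09 and 9.10 in WT open and 8.51, 8.47 and 8.57 in WT closed arrays. The KO arrays read 9.03, 9.02 and 8.95 when open and 8.43, 8.59 and 8.38 when closed, so the sides again did not overlap. The mean change was -0.53 (standard error 0.063, 95% interval -0.66 to -0.39, adjusted p = 0.000714, limma), or 1.44-fold lower. Syn2 was called in both genotypes, with -0.52 in the WT (adjusted p = 0.0204) and -0.53 in the KO (adjusted p = 0.0162, limma). The WT call ended without WT closed replicate 1, 2 or 3 or WT open replicate 2 or 3 (adjusted p up to 0.110), and the KO call without KO closed replicate 1 or 3 or KO open replicate 1 or 2 (adjusted p up to 0.0913, limma).

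Promoter windows of these genes are shown as a description, and a full cAMP response element was found only in that of Syn1. A link between a motif and the change with occlusion was not tested. RefSeq windows on GRCm38.p6, each from 250 bases before to 50 bases after a transcription start, were held for 8 of the 10 genes (11 windows). Both strands were searched. The full element TGACGTCA lies in 1.79% of all 32851 windows, and CAGCACC, a piece of the RE1 element bound by the neuronal repressor REST, lies in 7.14% of windows and among these genes only in Syn1, at 2 places. The Syn1 stretches are read on the minus strand, 5′ to 3′, with the match in capitals and 11 bases before it. Counted from the start, their matches begin at -159, -230 and -176.
Syn1, TGACGTCA, chrX:20921059-20921088: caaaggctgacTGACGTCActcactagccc
Syn1, CAGCACC, chrX:20921131-20921159: actgtcggattCAGCACCgcggtcagagc
Syn1, CAGCACC, chrX:20921077-20921105: caccacctcccCAGCACCaaaggctgact
The CAGCACC match nearer to the start lies shortly upstream of the cAMP response element, so the last stretch and the first overlap. A match describes letters in the window and is not evidence of binding. Neither window of Syn2 holds any of the searched elements other than the GC box GGGCGG, which lies in 35.7% of all windows.

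Slc17a6 encodes VGLUT2, the transporter that fills vesicles with glutamate. Its log2 levels were 11.18, 11.11 and 11.17 in WT open arrays and 10.81, 10.71 and 10.85 in WT closed arrays. In the KO they were 11.07, 11.16 and 11.18 with the nostril open and 10.81, 10.72 and 10.80 with it closed. The lowest open array of either genotype lay above the highest closed array. In neither genotype alone did the gene pass, with changes of -0.37 in the WT (adjusted p = 0.0648) and -0.36 in the KO (adjusted p = 0.0617, limma). Over both the difference was -0.36 (standard error 0.056, 95% interval -0.49 to -0.24, adjusted p = 0.00389, limma), a 1.29-fold lower level, and passed. The related transporter Slc17a7 (VGLUT1) changed by -0.092 in the same comparison (adjusted p = 0.842) and did not pass.

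One of the 2 Slc17a6 windows holds the homeodomain motif TAATTA (5.29% of all windows, and of these genes only Slc17a6) and, upstream of it, CGTCA, the core of the cAMP response element (20.8% of all windows). The core is on the minus strand here and reads TGACG on the plus strand, which is printed with each match in capitals.
Slc17a6, CGTCA on the other strand, chr7:51624524-51624550: tgagatagtaaTGACGcaagattgtga
Slc17a6, TAATTA, chr7:51624545-51624572: ttgtgaatgatTAATTAttcatgttgta
The CGTCA match begins at -102 and the TAATTA match at -81 from the start. Besides Slc17a6, CGTCA was found in the windows of Stx1a, Cplx1 and Syn1, and in Syn1 it is part of the full element.

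Syt1, Stx1a and Snap25 belong to the fusion machine itself: Syt1 is the calcium sensor on the vesicle, and Stx1a and Snap25 are the SNARE proteins of the plasma membrane. None of the 3 passed in any comparison of the main fit. With trend and robust fitting, Stx1a and Snap25 passed over both genotypes (adjusted p = 0.0338 and 0.00664, limma). Syt1 had log2 levels of 10.55, 10.53 and 10.48 in WT open and 10.23, 10.34 and 10.50 in WT closed arrays, and 10.36, 10.58 and 10.42 in KO open and 10.30, 10.47 and 10.32 in KO closed arrays. The sides overlapped in both genotypes, and the mean difference was -0.13 (standard error 0.068, 95% interval -0.28 to 0.024, adjusted p = 0.490, limma), the smallest of the 9.

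Stx1a read 8.85, 8.79 and 9.05 in WT open, 8.47, 8.65 and 8.69 in WT closed, 8.80, 8.88 and 8.78 in KO open and 8.50, 8.52 and 8.79 in KO closed arrays. The sides were apart in the WT and overlapped in the KO through KO closed replicate 3. The mean difference was -0.26 (standard error 0.077, 95% interval -0.43 to -0.090, adjusted p = 0.124, limma). Snap25 read 10.21, 10.27 and 10.59 in WT open, 10.04, 10.18 and 10.08 in WT closed, 10.23, 10.28 and 10.38 in KO open and 9.98, 10.03 and 10.13 in KO closed arrays. All of its closed arrays lay below all of its open arrays, by as little as the gap between WT closed replicate 2 and WT open replicate 1. Its mean difference of -0.25 (standard error 0.076, 95% interval -0.42 to -0.086, adjusted p = 0.128, limma) did not pass. The Stx1a window holds CGTCA on the minus strand at -144 from the start, printed on the plus strand as TGACG.
Stx1a, CGTCA on the other strand, chr5:135023327-135023353: agatcactagtTGACGaggggaggaac

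The complexins Cplx1 and Cplx2 bind the assembled SNARE complex and hold it ready for calcium. Cplx2 had log2 levels of 8.82, 8.70 and 8.80 in WT open, 8.27, 8.41 and 8.31 in WT closed, 8.66, 8.77 and 8.67 in KO open and 8.41, 8.31 and 8.35 in KO closed arrays. No closed array reached an open one. The difference was -0.40 over both genotypes (standard error 0.058, 95% interval -0.52 to -0.27, adjusted p = 0.00279, limma), a 1.32-fold lower level. It passed in the WT at -0.45 (adjusted p = 0.0293) but not in the KO at -0.34 (adjusted p = 0.0918, limma). The WT call of Cplx2 ended without KO closed replicate 2 or 3, KO open replicate 1, any of the 3 WT closed arrays, or WT open replicate 1 or 3 (adjusted p up to 0.136, limma).

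Cplx1 gave a weak signal, a mean log2 level of 6.03 against a filter at 5, where the other 8 genes had means from 8.37 to 10.96. Its WT open arrays spread over 5.72, 6.23 and 6.56, wider than any other group of any of these genes, and its WT closed arrays read 5.89, 6.22 and 5.93. In the KO the arrays were 6.21, 6.33 and 6.17 open and 5.73, 5.80 and 5.61 closed, and did not overlap. The differences were -0.16 in the WT (standard error 0.18, adjusted p = 0.895) and -0.52 in the KO (standard error 0.18, adjusted p = 0.287), and the mean of -0.34 did not pass (95% interval -0.62 to -0.067, adjusted p = 0.236, limma). Without WT open replicate 3 the WT difference turned to 0.034 (adjusted p = 0.989, limma), and without WT open replicate 1 the mean difference became -0.45 and passed (adjusted p = 0.0332, limma).

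Dnm1 encodes the neuronal dynamin that pinches recovered vesicles off the membrane. It had the tightest groups of the 9 genes in the WT: 10.57, 10.55 and 10.59 in open arrays and 10.12, 10.05 and 10.06 in closed arrays. In the KO it read 10.51, 10.46 and 10.45 open and 10.18, 10.06 and 10.04 closed. The sides did not overlap in either genotype. The difference was -0.44 over both (standard error 0.054, 95% interval -0.56 to -0.32, adjusted p = 0.000874, limma), a 1.35-fold lower level. Dnm1 was also called in each genotype, with -0.49 in the WT (adjusted p = 0.0113) and -0.38 in the KO (adjusted p = 0.0384, limma). The WT call ended without WT closed replicate 2 or WT open replicate 1 or 3 (adjusted p up to 0.0665), and the KO call of Dnm1 ended whichever of the 12 arrays was left out (adjusted p from 0.0530 to 0.189, limma). Of the searched elements its promoter window holds only a GC box, and that of Cplx2 holds none.

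**Figure D1:**
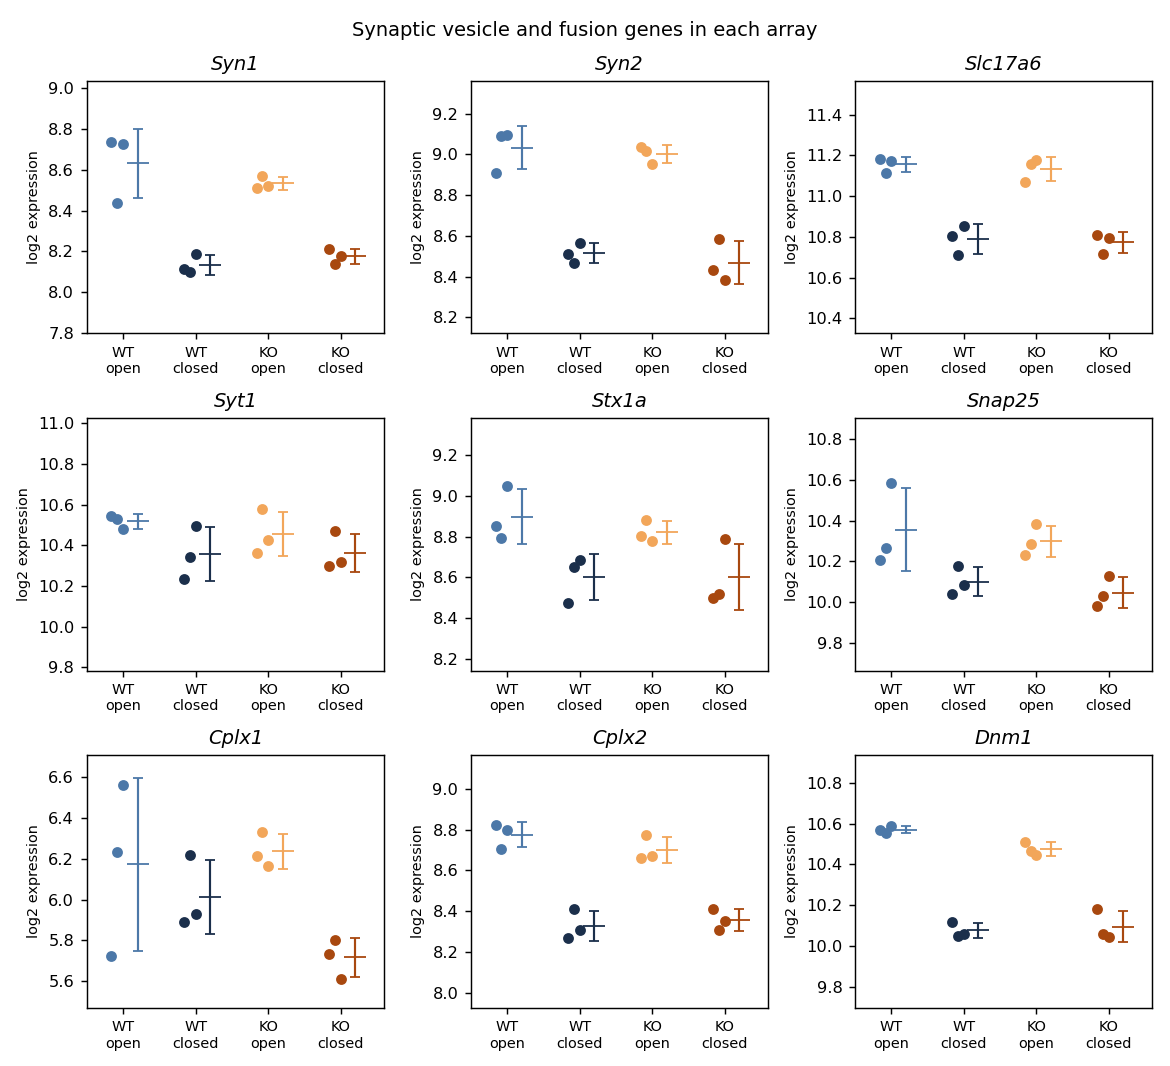
Log2 expression of the 9 genes (vertical axis, same span in every panel) for the 4 groups. Each point is 1 array, and the line with whiskers gives the group mean and SD (n = 3). The closed arrays of Syn1, Syn2, Slc17a6, Snap25, Cplx2 and Dnm1 lie below all open arrays. Those of Syt1, of Cplx1 in the WT and of Stx1a in the KO overlap with the open arrays of their genotype.

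The counts differed between the comparisons. In the WT alone 4 of the 9 genes were lower and 0 higher, where 0.380% of all probe sets were called lower and 0.475% higher. In the KO alone 2 were lower and 0 higher, against 0.340% and 0.705% of all probe sets. The 3 side comparisons share arrays and are not independent of each other. At an unadjusted p under 0.05, limma gave 7 of 9 genes in the WT, 7 in the KO and 8 over both, all lower, and Syt1 was the exception in that last comparison. Of all probe sets, 5.17%, 3.68% and 5.79% were lower at that level.

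Apart from the test, 7 of the 9 genes had every closed array below every open array in the WT (all but Syt1 and Cplx1), as did 7.05% of all probe sets. In the KO there were also 7 (all but Syt1 and Stx1a), against 6.71% of all probe sets. Over both genotypes, with 6 arrays on each side, there were 6 (Syn1, Syn2, Slc17a6, Snap25, Cplx2 and Dnm1), against 1.59% of all probe sets. The median log2 difference of the 9 genes was -0.37 in the WT, -0.36 in the KO and -0.36 over both, and that of all probe sets tested was -0.012, 0.020 and 0.0027.

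Ranked among all probe sets by the mean difference, only 0.543% lay lower than Syn2, 0.889% lower than Dnm1, 0.947% lower than Syn1, 1.27% lower than Cplx2 and 1.69% lower than Slc17a6. Syt1 stood furthest from them, with 15.5% of all probe sets lower. Differences between the genes were not tested against each other.

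**Figure D2:**
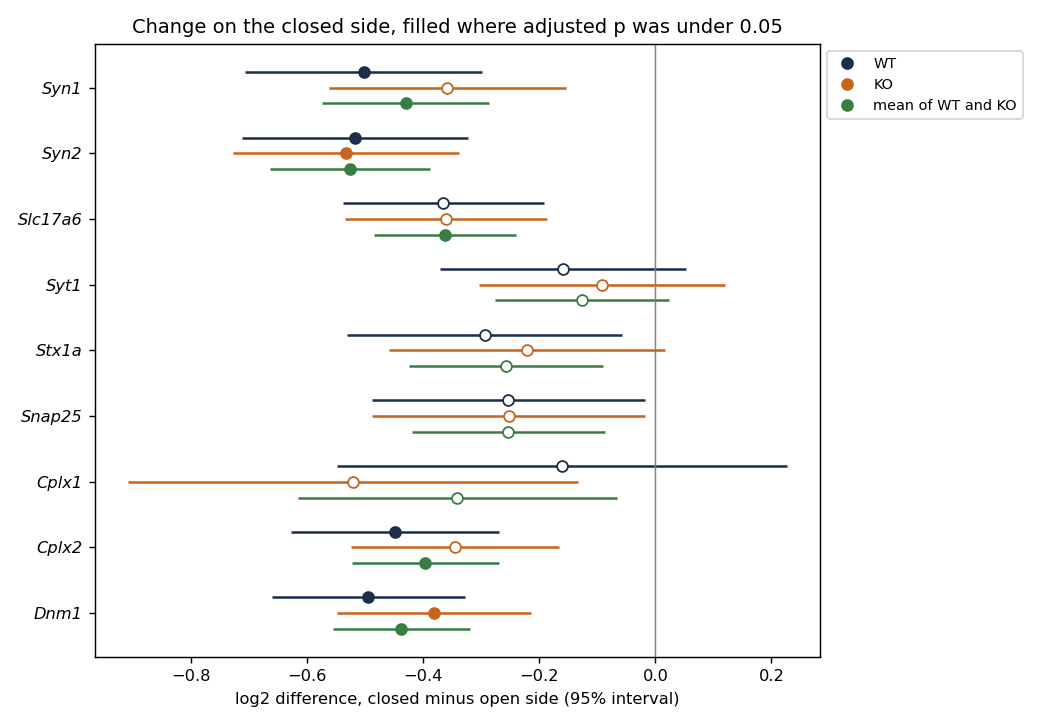
Log2 difference between the closed and the open side (horizontal axis) of the 9 genes in the WT, in the KO and averaged over both, with 95% intervals from limma. Filled points passed at an adjusted p under 0.05. All points lie below 0, the mean of Syn2 at -0.53 and that of Syt1 at -0.13.

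The calls over both genotypes held under more settings than those in a single genotype. The 5 genes called over both genotypes were called under each of the 20 alternatives tried for that comparison, with adjusted p of at most 0.0106 for Syn2, 0.0120 for Dnm1, 0.0229 for Syn1, 0.0265 for Slc17a6 and 0.0335 for Cplx2 (limma). By contrast, the 4 WT calls became 0 without WT closed replicate 2 or WT open replicate 3, 1 without WT closed replicate 1, WT closed replicate 3 or WT open replicate 1, and 2 without KO closed replicate 2, KO closed replicate 3 or KO open replicate 1. The 2 KO calls became 0 without KO closed replicate 1, KO closed replicate 3, KO open replicate 1 or KO open replicate 2, and 1 without any other single array. KO arrays enter the WT calls through the shared estimate of the spread.

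**Figure D3:**
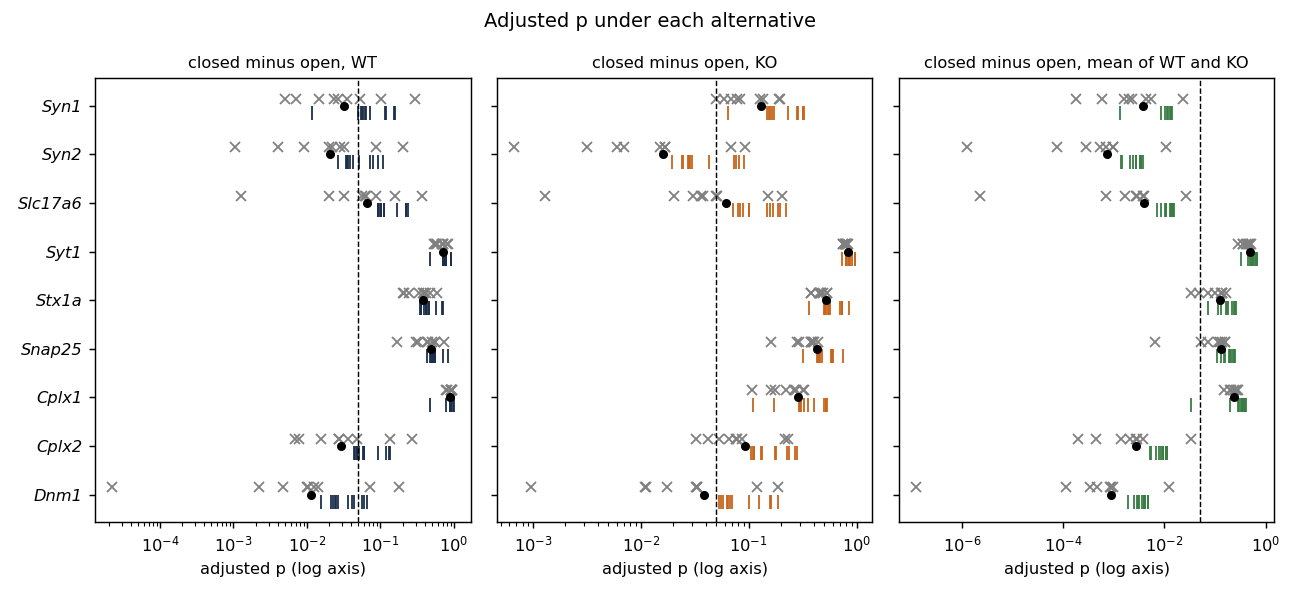
Adjusted p (horizontal axis, log scale) of each gene for the 3 side comparisons. Black points are the values as reported, coloured ticks leave out 1 array each, grey crosses are other settings, and the dashed line marks 0.05. In the right panel all marks of Syn1, Syn2, Slc17a6, Cplx2 and Dnm1 lie left of the line.

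The question whether the H2be deletion alters these genes was put on each side. On the open side 0 of the 9 passed between KO and WT, where only 7 of all 32615 probe sets did (limma). At an unadjusted p under 0.05 there were 0 of the 9, where 6.67% of all probe sets had one. The differences ran from -0.10 for Syn1 to 0.063 for Cplx1, although under the alternatives that of Syn1 reached -0.20 and that of Cplx1 lay between -0.16 and 0.26, and without Cplx1 their 95% intervals lay between -0.31 and 0.18. Dnm1 alone had all KO open arrays below all WT open arrays, as did 8.39% of probe sets, with a difference of -0.096 (adjusted p = 0.880, limma).

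On the closed side again 0 of the 9 passed, where only 8 of all 32615 probe sets did (limma). At an unadjusted p under 0.05 there were 0 of the 9, against 4.26% of all probe sets. The differences ran from -0.30 for Cplx1 to 0.044 for Syn1, and the intervals without Cplx1 lay between -0.29 and 0.25. Cplx1 was the only gene with all KO closed arrays below all WT closed arrays, as were 4.59% of probe sets, and its difference did not pass (adjusted p = 0.999, limma).

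The change with occlusion was then compared between the genotypes, as the KO change minus the WT change. In this test 0 of the 9 genes passed, and 0 of all 32615 probe sets did (limma). At an unadjusted p under 0.05 there were 0 of the 9, against 4.01% of all probe sets. The values ran from -0.36 for Cplx1 (standard error 0.25) to 0.14 for Syn1 (standard error 0.13, 95% interval -0.14 to 0.43), with 0.10 for Cplx2 and 0.11 for Dnm1. Under the alternatives the value of Cplx1 lay between -0.55 and -0.13 and that of Syn1 between 0.092 and 0.24. For Slc17a6 the difference was 0.0051 (95% interval -0.24 to 0.25) and for Syn2 -0.015 (-0.29 to 0.26), and both changed sign with the setting. Without Cplx1 the 95% intervals of the 8 genes lay between -0.33 and 0.43. For each gene, differences between the genotypes within its own interval were not excluded with 3 arrays a group. A gene called in the WT and missed in the KO, such as Syn1 or Cplx2, is therefore not shown to differ between them.

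To set the 9 genes in their pathway, 103 other genes of the vesicle cycle were taken in 5 lists, of which 96 had a probe set of their own symbol above the filter. Over both genotypes 5 of the 96 were lower, 2 higher and 89 did not pass, with a median of -0.038. The shares of all probe sets, 1.23% lower and 1.66% higher, are to be set beside this count and that of each list below. In the WT only Syngr1 passed (median -0.086), and in the KO 0 passed (median -0.0021, limma), while the alternatives gave from 0 to 5 calls in the WT and from 0 to 4 in the KO. The 7 calls became 11 with trend and robust fitting, 2 without WT open replicate 1, 3 without KO open replicate 2, KO open replicate 3, WT closed replicate 1 or WT open replicate 3, and 4 without KO closed replicate 2, KO closed replicate 3, KO open replicate 1 or WT closed replicate 2.

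Of 22 other vesicle proteins, 1 was lower and the median was -0.067. It was Syngr1, the tetraspan vesicle protein synaptogyrin 1, with a mean difference of -0.38 (standard error 0.057, adjusted p = 0.00345, limma), of -0.45 in the WT (adjusted p = 0.0266) and of -0.30 in the KO (adjusted p = 0.139), and its call held under all 20 alternatives. Synaptophysin (Syp), the most widely used vesicle marker, changed by -0.084 (adjusted p = 0.679), the vesicle glycoprotein Sv2a by -0.17 (adjusted p = 0.230) and the vesicle GTPase Rab3a by -0.093 (adjusted p = 0.683), and none of these 3, chosen after their values were seen, passed.

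Of 21 SNAREs and regulators, 1 was lower and 1 higher, with a median of -0.023. Nsf, the ATPase that takes used SNARE complexes apart, was lower, with a difference of -0.32 (adjusted p = 0.0174, limma), a call lost without KO open replicate 2, WT open replicate 1 or WT open replicate 3 (adjusted p up to 0.0545). Vamp1, the closest relative of Vamp2, was higher by 0.34 (adjusted p = 0.0116, limma), with all closed arrays above all open arrays. Its call was lost only with same-numbered samples as a block (adjusted p = 0.0546, limma). The complexin Cplx3 had the largest difference of the list, -0.39 (standard error 0.21), which lay between -0.52 and -0.18 under the alternatives and did not pass (adjusted p = 0.493, limma). Its signal was weak, with a mean log2 level of 5.52 and, in WT closed arrays, of 4.97 with an SD of 0.73. Cplx3 changed by -0.82 in the WT and 0.046 in the KO (difference between genotypes 0.87, unadjusted p = 0.0642, limma).

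Of 17 other synaptotagmins and related genes, not all of them calcium sensors, 3 were lower and 1 higher, with a median of 0.012. Syt9, Syt5 and Syt7, synaptotagmins that bind calcium, were lower, with differences of -0.37, -0.30 and -0.27 (adjusted p = 0.0267, 0.0241 and 0.0300, limma), and Syt10 was higher by 0.50 (adjusted p = 0.0225, limma). The Syt9 sides overlapped, while those of Syt5, Syt7 and Syt10 did not. These calls were close to the threshold. The call of Syt5 needed every array but WT closed replicate 3 and WT open replicate 2 (adjusted p up to 0.0688 without another), and that of Syt7 was lost without any but KO closed replicate 1 and WT open replicate 2 (up to 0.0857). That of Syt9 was lost without any but KO closed replicate 3, KO open replicate 2, WT closed replicate 3 and WT open replicate 2 (up to 0.0844), and that of Syt10 without any but KO closed replicate 1, KO open replicate 1, WT closed replicate 2 and WT open replicate 3 or with same-numbered samples as a block, which also ended the call of Syt7 (Syt10 up to 0.0661, limma).

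Of 27 genes of vesicle endocytosis 0 passed over both genotypes (limma), with a median of -0.072. The widely expressed dynamin Dnm2 changed by -0.072 and Dnm3 by 0.18, against the -0.44 of Dnm1. The largest difference of the list was that of Pacsin1, a dynamin partner that bends membranes, with -0.27 (adjusted p = 0.280, limma). Without KO closed replicate 2 Pacsin1 was lower by a difference of -0.37 and passed (adjusted p = 0.0373, limma). Of 9 other vesicular transporters 0 passed either, the largest difference being the 0.34 of the nucleotide transporter Slc17a9 (adjusted p = 0.312, limma).

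**Figure D4:**
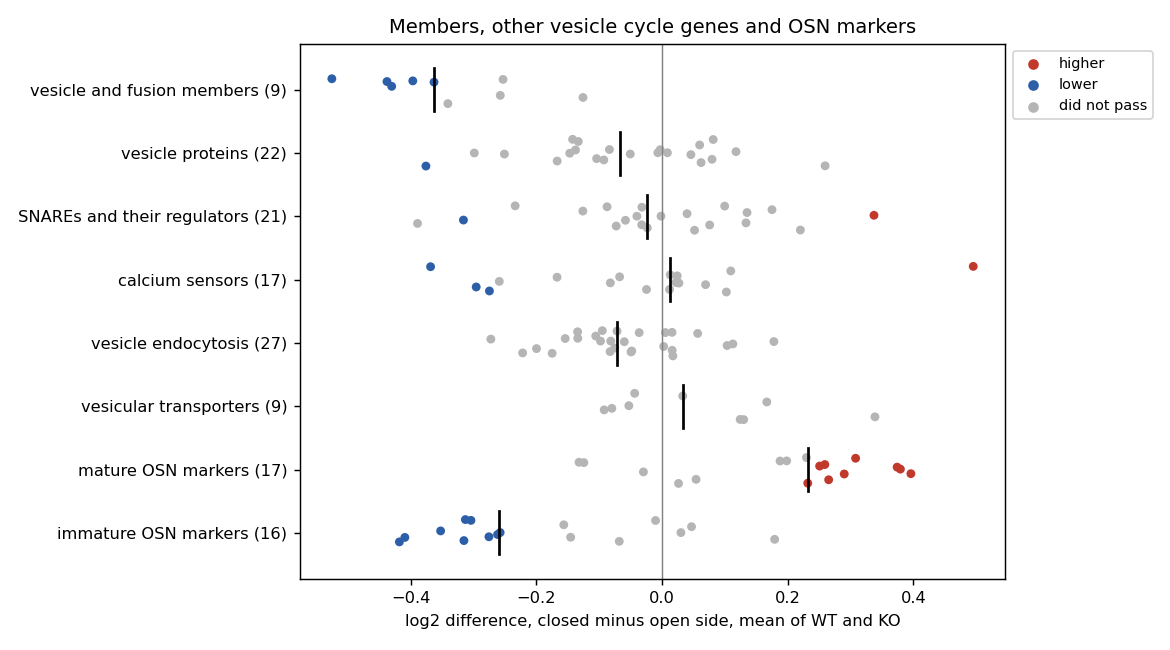
Log2 difference between the closed and the open side averaged over WT and KO (horizontal axis) for single genes (points) of each list, with the number of genes measured in parentheses and the median as a vertical bar. Points are coloured where the gene passed. The 9 vesicle and fusion genes have a median of -0.36, the 5 pathway lists medians from -0.072 to 0.033, mature OSN markers 0.23 and immature OSN markers -0.26.

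Most markers of 2 stages of the OSN moved with the same comparison, in opposite directions. Of 17 mature OSN markers 9 were higher, 0 lower and 8 did not pass, with a median of 0.23. By sign, 14 of them lay above 0 and 3 below, which were Ebf2 (-0.13), Pde1c (-0.12) and Rtp2 (-0.030). Their mean log2 level per array lay between 11.04 and 11.05 in WT open, 11.18 and 11.28 in WT closed, 11.02 and 11.08 in KO open and 11.25 and 11.27 in KO closed arrays. Cnga4 and Cngb1, subunits of the olfactory transduction channel, were higher by 0.40 and 0.38, the chloride channel gene Ano2 by 0.37 and the G protein gene Gnal by 0.31, while Omp changed by 0.026 (adjusted p = 0.910, limma).

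Of 16 immature OSN markers 9 were lower, 0 higher and 7 did not pass, with a median of -0.26. By sign, 13 of them lay below 0 and 3 above, which were Nrn1 (0.18), Dcx (0.047) and Crmp1 (0.030). The mean level per array lay between 9.71 and 9.77 in WT open, 9.50 and 9.63 in WT closed, 9.70 and 9.78 in KO open and 9.53 and 9.57 in KO closed arrays. The G protein subunit gene Gng8 changed by -0.42, the transcription factor genes Nhlh2 and Nhlh1 by -0.41 and -0.35 and Dpysl3, a cytoskeletal gene of growing axons, by -0.32 (all passed, limma). In the WT alone 1 mature marker was higher and 1 immature marker lower, and in the KO 3 and 1. The mature WT call was lost whichever array was left out, and over the alternatives the mature counts ran from 0 to 7 in the WT and 0 to 9 in the KO, and the immature counts from 0 to 7 in each. The part of cell composition in the changes of the vesicle genes was not tested.

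The calls of Cnga4, Cngb1, Ano2, Gng8 and Nhlh2 held under all 20 alternatives. That of Dpysl3 was lost without KO closed replicate 2 or WT open replicate 1, that of Gnal without any array but KO closed replicate 3, KO open replicate 2, WT closed replicate 2 and WT open replicate 2, and that of Nhlh1 without any but KO closed replicate 1 and WT closed replicate 3 (adjusted p up to 0.0592, 0.0778 and 0.0825 over all alternatives, limma). The 9 mature markers became 4 without KO closed replicate 1, KO open replicate 1, WT open replicate 1 or WT open replicate 3, and 5 without KO closed replicate 2, KO closed replicate 3 or WT closed replicate 3. The 9 immature markers became 3 without KO closed replicate 2, WT closed replicate 1, WT closed replicate 2 or WT open replicate 1, 4 without KO closed replicate 3, KO open replicate 2, KO open replicate 3 or WT open replicate 3, and 5 without KO open replicate 1.

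Of 11 markers of basal cells and progenitors only Neurod1 passed, with -0.27 (adjusted p = 0.0429, limma), and that call was lost without any array but KO open replicate 3 (adjusted p up to 0.125). Of the markers of sustentacular cells (10), microvillous cells (8), respiratory ciliated cells (10), ensheathing glia (7), glands (7), blood and immune cells (5) and other sensory or nerve neurons (5), 0 passed in the same comparison (limma). The 10 respiratory ciliated markers all had differences above 0, with a median of 0.18, and their mean level was 8.57 to 8.76 in WT open, 8.75 to 9.04 in WT closed, 8.58 to 8.81 in KO open and 8.77 to 8.95 in KO closed arrays. The mean level of the glia list was 8.99 to 9.09 in WT open, 8.86 to 8.94 in WT closed, 8.88 to 9.01 in KO open and 8.77 to 8.93 in KO closed arrays. No listed marker with a probe set lay at or below the filter, so absence of another cell type cannot be read from these lists.

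Across the 12 arrays the 9 genes, all with a lower mean on the closed side, varied together. Over the 36 pairs of them Pearson's r ran from 0.348 (Syt1 with Cplx1) to 0.961 (Syn1 with Cplx2), with a median of 0.775, and all arrays share the 2 sides and the normalization. With the mean of each group removed the median was 0.124 and 26 of 36 pairs lay above 0, so most of the shared variation was that between the groups. No r was taken over pairs of other genes to set beside these values.

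The genes with the pattern most like each of the 9 were sought among 19390 named genes, by Pearson's r over the 12 arrays. For Syn1 they were Dlg2, a scaffold protein gene of synapses (r = 0.977, and 0.848 with group means removed), B230217C12Rik (0.976) and Gpr37 (0.973). For Syn2 they were the semaphorin gene Sema7a (0.977, and 0.578 with group means removed), Trim45 (0.973) and the calcium-binding protein gene S100a5 (0.973). For Dnm1 they were the receptor phosphatase gene Ptprs (0.990, and 0.714 with group means removed), Sema7a (0.984) and Pappa (0.984), so that Sema7a stood in the leading 3 of both Syn2 and Dnm1. For Slc17a6 they were Slc22a23, Eml5 and Pcp4l1 (0.984, 0.984 and 0.982), and for Cplx2 they were Gpr37, Gm4983 and Slc24a2 (0.964, 0.962 and 0.962), so that Gpr37 was shared by Cplx2 and Syn1.

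By r over the 12 arrays, the first companions of the genes that did not pass had lower values than those of the genes that passed. With group means removed, the first companions had 0.866 for Syt1, 0.869 for Stx1a, 0.818 for Snap25 and 0.935 for Cplx1. Among the genes that passed they had 0.848 for Syn1, 0.578 for Syn2, 0.845 for Slc17a6, 0.698 for Cplx2 and 0.714 for Dnm1. As companions were chosen by r with group means kept, the values without them depend on that choice and do not compare the genes. The companions of Stx1a were Olfr786, Zcchc12 and Wdr54 (0.937, 0.930 and 0.919), and those of Snap25 Bzw2, Dbndd2 and Prickle4 (0.929, 0.925 and 0.920). Those of Syt1 were Pcdhb1, Olfr1156 and Tshz2 (0.916, 0.911 and 0.909), and those of Cplx1 the secretogranin gene Scg2, Olfr411 and Olfr969 (0.906, 0.876 and 0.873). The likeness of Scg2 to Cplx1 was as high with group means removed (0.935), that is, among arrays of the same group. Such companions are the best of many genes over few arrays and are given as a description.

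Among the promoter windows, 6 of the 11 (of Cplx1, Dnm1, Slc17a6, Stx1a, Syn2 and Syt1) held a GC box, against 35.7% of all windows. The E-box CACGTG (7.15% of all windows) and the palindrome of EBF factors (0.904%) lay in none of the 11. The GC content of the windows ran from 43% (Slc17a6) to 68.3% (Syn1), with a median of 52.7% over all windows. Among the 5 genes that passed, no searched element lay in the windows of all 5: Cplx2 held none, Dnm1 and Syn2 the GC box alone, Slc17a6 the GC box, CGTCA and TAATTA, and Syn1 the full cAMP response element and CAGCACC.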

How the data were processed

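Total RNA of 12 samples, 3 in each of 4 groups, was hybridised by the authors to Affymetrix arrays of the Mouse Gene ST kind. The deposited values are log2 expression levels of each probe set on each array, which the authors made in the Affymetrix Expression Console by sketch-quantile normalization and IterPLIER summarisation. Such normalization gives all arrays nearly the same distribution, so a change is relative to the other probe sets of the array. There are 35556 probe sets, with 0 missing values and no array alike to another. Of these, 21789 carry 1 gene symbol in the platform annotation, 1621 several and 12146 none, and genes were named only from the first kind. Where a gene had several probe sets, that with the highest mean was used.

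A filter kept probe sets whose mean log2 level exceeded 5 and took out 2941. A model with 1 mean per group was fitted to the other 32615 with lmFit and eBayes of limma 3.58.1 in R 4.3.3, with 11.5 degrees of freedom behind each of 6 comparisons. Tests were two-sided, with Benjamini-Hochberg adjustment over all 32615 and a threshold of 0.05. The fit was tested on simulated data. Promoters and figures were handled in Python 3.11.15 with matplotlib 3.10.9. The promoter windows are those of RefSeq on GRCm38.p6, and no window was held for Snap25 and Vamp2. Precision is limited by the number of arrays.

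The members, the lists and the rule for naming were chosen with earlier results of these data known. All members were named, with each pathway gene that was called in a side comparison or changed most in its list (at most 6 a list), called markers (at most 4 a list) and the 3 genes most like each member. Genes named outside this rule (Syp, Sv2a, Rab3a, Slc17a7, Dnm2, Dnm3 and the markers that were not called) were chosen after their values were seen. Listed genes for which no probe set of 1 symbol was held were not analysed here. Samples were grouped by their labels, and nothing says that they come from separate litters or that same-numbered samples share mice, so p-values measure the spread between these samples. Alternatives were other filters, normalizations and fits, a block for same-numbered samples, and leaving out each array in turn.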

Additional observations from a re-analysis of the deposited data

How the results depend on the processing

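The count of members lower over both genotypes, 5, kept the same 5 genes under all 20 alternatives, and ran from 5 to 6 without 1 array. The 4 WT calls became 0 when the model held just the WT arrays and 0 with a replicate block joining samples of the same number, and ran from 0 to 4 without 1 array. The 2 KO calls became 4 with array weights, 5 with a filter at a mean log2 of 7, 0 when the model held just the KO arrays and 0 with the replicate block, and ran from 0 to 1 without 1 array. The last 2 fits had fewer arrays or degrees of freedom, and the higher filter fewer probe sets. The cause of the changed counts was not tested. The block gave Dnm1 an adjusted p of 0.0714 in the WT and 0.119 in the KO, Syn2 0.0860 and 0.0681, and, in the WT, Syn1 0.102 and Cplx2 0.137 (limma). In the KO against WT comparisons and the comparison of changes between genotypes, 0 members were called under every alternative. Over members and alternatives, the sign of these uncalled differences turned in 7 of 179 values on the open side, 15 of 179 on the closed side and 23 of 179 between genotypes. Leaving out 1 array moved the WT difference of Cplx1 between -0.39 and 0.034, the only called or uncalled side difference of a member that turned. Same-numbered samples correlated after removal of group means with r from -0.0090 to 0.233 (6 pairs, 2 above 0.1) and other pairs from -0.19 to 0.13. These values cannot exclude that same-numbered samples share mice, and the main fit did not pair them. With the number as a random block (correlation 0.162), Slc17a6 also passed in the WT (adjusted p = 0.0315, limma) and the KO (adjusted p = 0.0303, limma). The 7 pathway calls over both genotypes became 4 and the 9 mature and 9 immature OSN markers 4 and 3 with the replicate block. No other probe set could be tried, as each member has 1, and no block could be fitted for KO against WT, where it lies within a genotype. With trend and robust fitting, Stx1a and Snap25 also passed over both genotypes (adjusted p = 0.0338 and 0.00664, limma), the immature OSN markers called were 7 in each genotype, and the mature ones 7 in the WT and 9 in the KO.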
